A study of Homo sapiens with 30 samples.

Results

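The 9 genes described here encode inhibitors that the ERK pathway switches on against itself: the phosphatases DUSP4, DUSP5 and DUSP6, the Sprouty proteins SPRY1, SPRY2 and SPRY4, and the Sprouty-related proteins SPRED1, SPRED2 and SPRED3. They were chosen by name. Each was read from the array feature, a transcript cluster, whose only symbol in the probe table was that gene, and every one of the 9 had exactly 1 such feature, out of 19912 singly named genes and 52329 features in all. The RNA came from WI-38, a long-established human cell line of normal diploid lung fibroblasts, and had been hybridised to 30 Affymetrix HTA 2.0 arrays that the labels place in 15 groups of 2. The labels give culture at 3% oxygen with 5% carbon dioxide for all groups, and 1 treatment text for every array, so what the T0 cells had received is not stated separately. The RAF groups, labelled 12, 24, 48, 72 and 96 h and T0, held cells with a doxycycline-inducible RAF, the kinase that activates MEK, induced with doxycycline at 100 ng/ml. The replicative groups, labelled 144, 264, 432, 624, 792, 1008, 1368 and 2112 h and T0, held cells that were brought to exhaustion by continued division in 21% oxygen. Which form of RAF was used, in which vector, and whether in 1 clone, is not given in the sources used here. The labels carry no later RAF group without doxycycline and no later replicative group outside 21% oxygen, so against T0 the agent, the oxygen and the elapsed time cannot be told apart. The study asked how expression changes as fibroblasts enter senescence, the lasting arrest of division, by either route.

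ERK is the last kinase of a relay that runs from growth factor receptors through RAS, RAF and MEK. Once active it drives transcription of its own inhibitors, so that a burst of signalling is followed by restraint. The DUSP proteins take the phosphates off MAP kinases, the SPRY proteins act near the receptor and on the step towards RAF, and the SPRED proteins hold down RAS. In human fibroblasts with an activated RAS or RAF oncogene these genes are well known as part of the response that precedes arrest. Transcript levels were measured here. ERK activity was not.

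Promoter sequence was taken from RefSeq (GRCh38.p14) because members that move together may be set beside each other at their start sites. Of the 9 members, 7 matched that table, with 12 windows of 280 bases, 250 before the start of a transcript and 30 after it. Both strands were searched for TGANTCA, the motif of FOS and JUN dimers, for TGACGTCA, the cyclic AMP response element, and for CCGGAA, a core of ETS factor sites. These motifs do not overlap one another in the windows shown. The first was in 2 of the 12 windows, the second in 0 and the third in 2, while over 35116 promoter windows of the same length they were found in 7.35%, 1.85% and 16.6%. The 5 windows printed are those with a match and that of DUSP6, which has none. Capitals mark a match, and all are written on the gene's own strand. The DUSP6 window lies at chr12:89352472-89352751 on the minus strand, SPRY1 window 2 at chr4:123398136-123398415 on the plus strand, SPRY2 window 3 at chr13:80341097-80341376 on the minus strand, SPRED2 window 1 at chr2:65366749-65367028 on the minus strand and SPRED3 window 2 at chr19:38389541-38389820 on the plus strand.
DUSP6: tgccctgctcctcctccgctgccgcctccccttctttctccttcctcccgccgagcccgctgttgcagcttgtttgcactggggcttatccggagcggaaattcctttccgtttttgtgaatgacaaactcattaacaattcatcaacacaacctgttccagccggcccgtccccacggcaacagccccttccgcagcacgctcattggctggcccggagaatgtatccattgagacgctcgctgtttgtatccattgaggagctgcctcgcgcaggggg
SPRY1: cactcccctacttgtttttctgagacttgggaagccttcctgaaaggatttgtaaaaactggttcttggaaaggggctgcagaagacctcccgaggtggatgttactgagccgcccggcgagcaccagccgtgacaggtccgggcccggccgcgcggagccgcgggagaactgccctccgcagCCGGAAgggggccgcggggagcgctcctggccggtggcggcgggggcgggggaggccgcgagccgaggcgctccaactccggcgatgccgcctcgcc
SPRY2: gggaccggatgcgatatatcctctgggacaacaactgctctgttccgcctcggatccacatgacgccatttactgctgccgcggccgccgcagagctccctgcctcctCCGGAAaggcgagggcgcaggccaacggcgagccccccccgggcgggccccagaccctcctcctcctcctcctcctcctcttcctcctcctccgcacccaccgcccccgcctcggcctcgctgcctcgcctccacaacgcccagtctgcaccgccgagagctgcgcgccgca
SPRED2: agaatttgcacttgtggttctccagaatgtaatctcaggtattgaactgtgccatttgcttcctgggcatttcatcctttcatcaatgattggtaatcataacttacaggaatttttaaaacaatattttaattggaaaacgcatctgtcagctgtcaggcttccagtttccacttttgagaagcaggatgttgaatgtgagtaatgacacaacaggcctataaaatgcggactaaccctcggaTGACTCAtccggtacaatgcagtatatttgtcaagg
SPRED3: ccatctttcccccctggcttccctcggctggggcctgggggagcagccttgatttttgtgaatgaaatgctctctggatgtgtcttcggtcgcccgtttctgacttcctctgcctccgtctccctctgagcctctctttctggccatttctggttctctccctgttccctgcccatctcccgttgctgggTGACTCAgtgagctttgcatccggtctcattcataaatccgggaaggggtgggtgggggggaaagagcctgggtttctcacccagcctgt

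The match of SPRY1 began 67 bases before the start (position -67) and that of SPRY2 at -142, both to CCGGAA. The match of SPRED2 began at -6 and that of SPRED3 at -60, both as TGACTCA. SPRY1 and SPRY2, which share these 6 letters, had group means that correlated negatively (Pearson r -0.8517 over 15 groups). Those groups share the split of the arrays given below, so the correlation is only a description. The 2 genes did not mirror each other throughout: at replicative 792 and 1008 h both had means above those of replicative T0. A match is a description of the letters and no evidence that a factor binds.

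The arrays did not sort by their labels, which bears on every value below. On the first principal component of all features, which held 64.2% of the variance, 12 arrays lay at 25.24 or above, namely those labelled replicative T0, 624, 792, 1008, 1368 and 2112 h, and the other 18 lay at -37.23 or below, namely all RAF-labelled arrays with those labelled replicative 144, 264 and 432 h. The 2 arrays of a label correlated at 0.9921 to 0.9969 over all features, and for 28 of the 30 the partner was the nearest array. MKI67, a protein of dividing cells, was 9.4 and 9.2 on the arrays labelled RAF 12 h against 5.1 and 5.2 on those labelled RAF T0, its lowest in the series. Groups are therefore called by their labels, with no claim that the label is right. Without the arrays labelled 144, 264 and 432 h, only the count of tests against replicative T0 and the test of any difference among replicative labels are given. Fibroblast markers averaged 9.83 to 10.1 in the RAF groups and 9.02 to 10.1 in the replicative groups (log2, 10 genes). Averaged over all 30 arrays, each of the 10 lay above the array median of 5.5. By group, LUM was below it at replicative 792 h (4.6) and 1008 h (5.05), and S100A4 in the RAF T0 (5.45), replicative 264 h (5.3) and 432 h (5.35) groups. Epithelial markers averaged 5.92 to 6.16 in the RAF groups and 5.88 to 6.06 in the replicative groups. Over all 30 arrays 6 of 10 lay above the array median, among them the keratins KRT18 (group means 8.25 to 9.35) and KRT8 (7.65 to 8.3). EPCAM, which defines epithelium, lay between 3.7 and 4.0. Endothelial markers averaged 5.6 to 5.67 in the RAF groups and 5.5 to 5.74 in the replicative groups, with 5 of 9 above the array median, among them TEK (group means 6.75 to 8.85), and with PECAM1 between 3.1 and 5.1 on single arrays. Leukocyte markers, 5 of 9 of which were measured, averaged 6.24 to 6.7 in the RAF groups and 6.26 to 6.6 in the replicative groups, with 3 of the 5 above the array median, among them CD68 (group means 9.45 to 10.9). In these bulk samples fewer cells of a kind and less RNA per cell cannot be told apart.

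Across the 15 groups the feedback genes were among the features with wide ranges. The group means of SPRY2 spanned 3.3 log2 units, those of SPRY4 3.15, DUSP6 3.05, SPRY1 2.35, SPRED2 2.0, DUSP4 and DUSP5 1.9, SPRED1 1.8 and SPRED3 1.2, while the median feature of the array spanned 0.6. The span of SPRY2 was wider than that of 99.4% of features and the span of SPRED3 wider than that of 86.2%. The members were also brighter than most features, from 69.9% of them for SPRED3 to 96% for DUSP6. Of the 52329 features, 29868 had no symbol. Spans were not compared with those of features of like brightness. For 8 of the 9 the highest group was one labelled replicative 792, 1008 or 1368 h. The share of all features highest at these labels was not counted. SPRY1 was lowest at replicative 1368 h (mean 5.7), with overlapping arrays at replicative T0 and 2112 h (mean 5.75 in both).

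**Figure D1:**
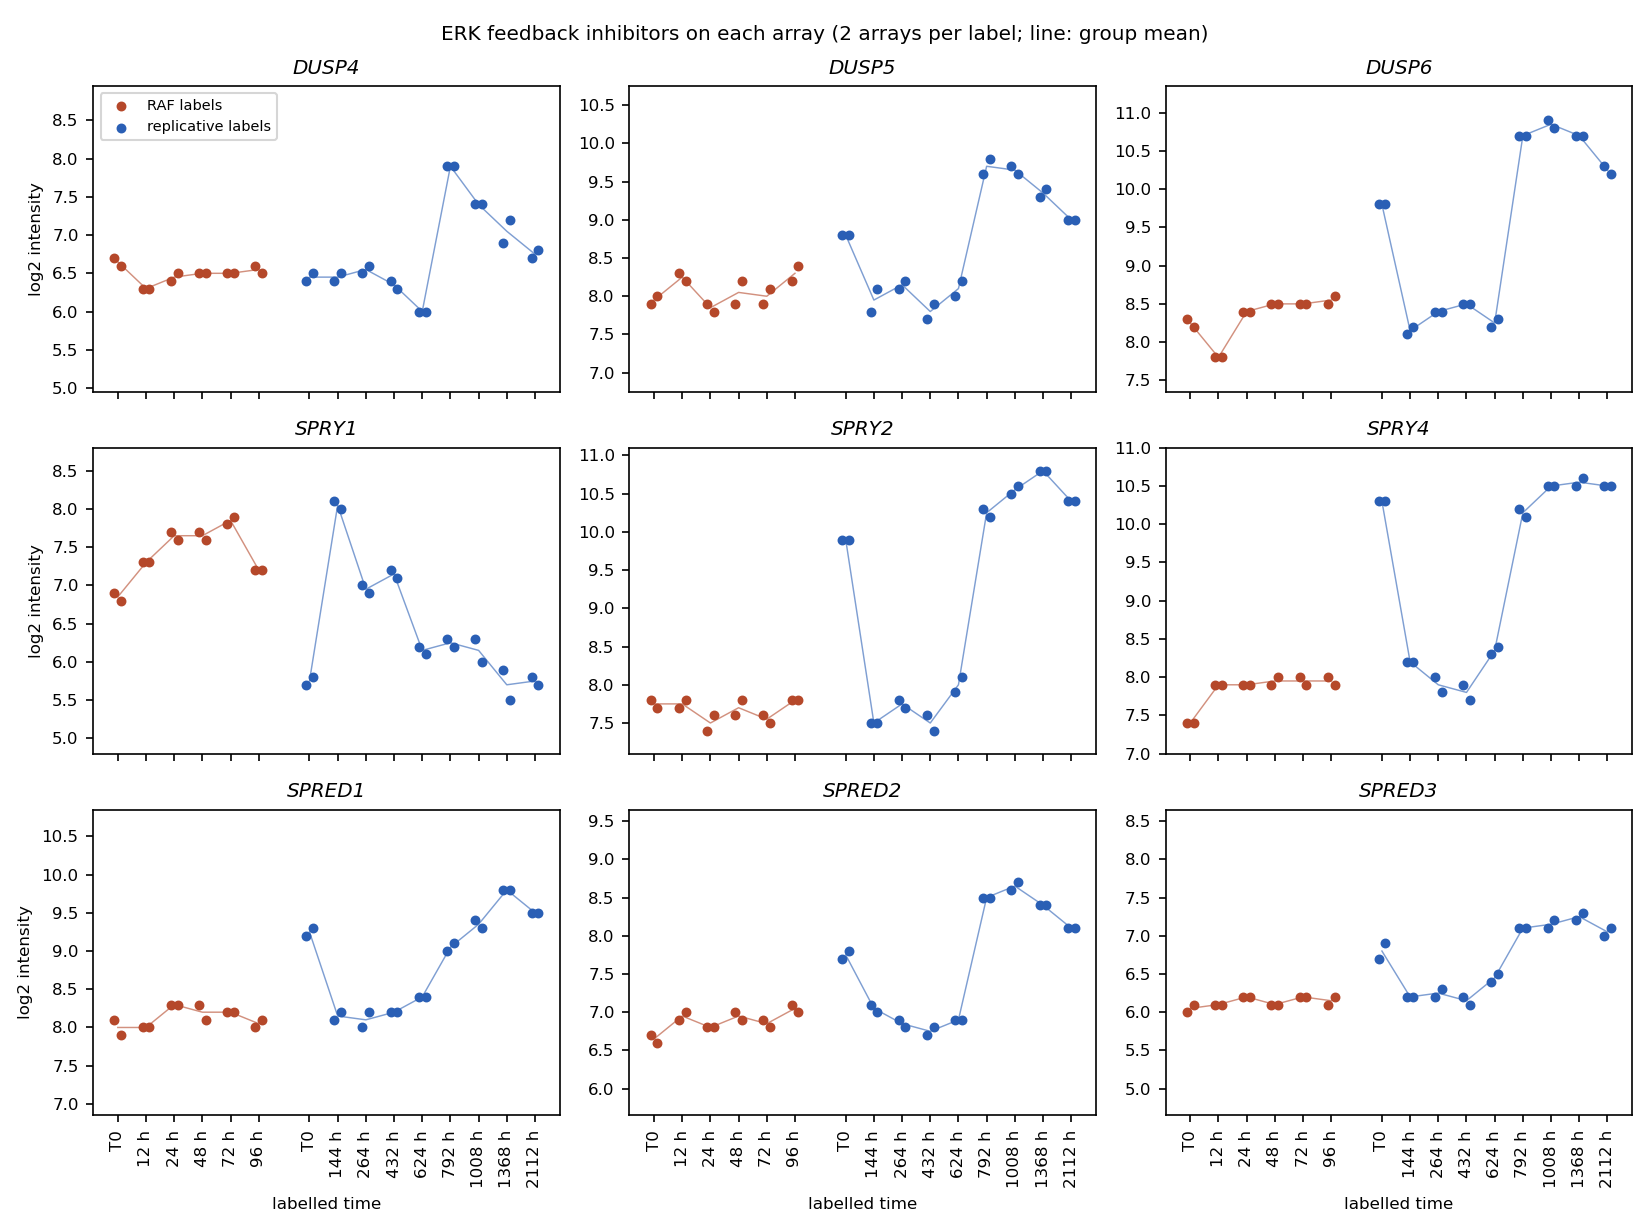
Log2 intensity of each member on every array, one panel per gene, with the labelled group on the horizontal axis (RAF labels left, replicative labels right) and 1 point per array. The arrays labelled replicative T0 and 792 to 2112 h stand high for DUSP6, SPRY2 and SPRY4, and SPRY1 is highest on those labelled 144 h.

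DUSP6, a cytoplasmic phosphatase that acts on ERK, was low on the RAF-labelled arrays and on the replicative arrays labelled 144 to 624 h. On the RAF arrays it had log2 intensities of 8.3 and 8.2 at T0, 7.8 on both at 12 h, 8.4 on both at 24 h, 8.5 on all 4 arrays of 48 and 72 h, and 8.5 and 8.6 at 96 h. On the replicative arrays it had 9.8 on both at T0, 8.1 and 8.2 at 144 h, 8.4 on both in the 264 h group, 8.5 on both at 432 h, 8.2 and 8.3 in the 624 h group, 10.7 on both at 792 h, 10.9 and 10.8 in the 1008 h group, 10.7 on both at 1368 h, and 10.3 and 10.2 in the 2112 h group. The 10 arrays from 792 h on and at T0 all exceeded every other array of the series, and no value lay between 8.6 and 9.8. The widest gap in its order of group means, 1.25, fell between replicative T0 at 9.8 and RAF 96 h at 8.55.

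DUSP5, a nuclear phosphatase of ERK, followed the same outline. It had 8.8 on both arrays labelled replicative T0, 8.0 and 8.2 at 624 h, 9.6 and 9.8 in the 792 h group, 9.7 and 9.6 at 1008 h, 9.3 and 9.4 in the 1368 h group and 9.0 on both at 2112 h, while the other replicative labels lay between 7.7 and 8.2. On the RAF arrays it lay between 7.8 and 8.4. Those labelled 12 and 96 h had 8.2 to 8.4 and those labelled T0, 24 and 72 h 7.8 to 8.1. The 48 h arrays, at 7.9 and 8.2, fell in both ranges.

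DUSP4, a nuclear phosphatase that acts on ERK and on the JNK and p38 kinases, differed from the other 2 in not being high at replicative T0. It had 6.4 and 6.5 on the arrays labelled replicative T0, 6.0 on both at 624 h, 7.9 on both in the 792 h group, 7.4 on both at 1008 h, 6.9 and 7.2 in the 1368 h group, and 6.7 and 6.8 at 2112 h. At T0 it stood with the arrays labelled 144, 264 and 432 h (6.3 to 6.6), not with those of the later labels. On the RAF arrays it ran from 6.3 on both arrays at 12 h to 6.7 and 6.6 at T0.

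SPRY2, which restrains signalling from receptor tyrosine kinases, had the widest range of the 9. It had 7.8 and 7.7 on the arrays labelled RAF T0, 7.7 and 7.8 at 12 h, 7.4 and 7.6 in the 24 h group, 7.6 and 7.8 at 48 h, 7.6 and 7.5 in the 72 h group, and 7.8 on both at 96 h. On the replicative arrays it had 9.9 on both at T0, 7.5 on both at 144 h, 7.8 and 7.7 in the 264 h group, 7.6 and 7.4 at 432 h, 7.9 and 8.1 in the 624 h group, 10.3 and 10.2 at 792 h, 10.5 and 10.6 in the 1008 h group, 10.8 on both at 1368 h and 10.4 on both in the 2112 h group. No value lay between 8.1 and 9.9. The RAF arrays and those labelled replicative 144, 264 and 432 h shared the range 7.4 to 7.8. Within it the RAF 24 and 72 h arrays had 7.4 to 7.6 and the RAF T0, 12 and 96 h arrays 7.7 to 7.8. The RAF 48 h arrays, at 7.6 and 7.8, fell in both ranges.

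SPRY4, a Sprouty protein with the same kind of action, split the arrays in the same way. It had 7.4 on both arrays labelled RAF T0, 7.9 on all 4 arrays of 12 and 24 h, 7.9 and 8.0 at 48 h, and 8.0 and 7.9 in both of the last groups, 72 and 96 h. On the replicative arrays it had 10.3 on both at T0, 8.2 on both at 144 h, 8.0 and 7.8 in the 264 h group, 7.9 and 7.7 at 432 h, 8.3 and 8.4 in the 624 h group, 10.2 and 10.1 at 792 h, 10.5 on both in the 1008 h group, 10.5 and 10.6 at 1368 h and 10.5 on both in the 2112 h group. Its T0 and 792 to 2112 h groups lay within 10.1 to 10.6, close together beside the gap of 1.8 that parted the 792 h mean of 10.15 from the 624 h mean of 8.35.

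SPRY1, the third Sprouty gene, was low on the arrays where SPRY2 and SPRY4 were high. It had 6.9 and 6.8 on the arrays labelled RAF T0, 7.3 on both at 12 h, 7.7 and 7.6 in each of the 24 and 48 h groups, 7.8 and 7.9 at 72 h, and 7.2 on both at 96 h. On the replicative arrays it had 5.7 and 5.8 at T0, 8.1 and 8.0 at 144 h, 7.0 and 6.9 in the 264 h group, 7.2 and 7.1 at 432 h, 6.2 and 6.1 in the 624 h group, 6.3 and 6.2 at 792 h, 6.3 and 6.0 in the 1008 h group, 5.9 and 5.5 at 1368 h, and 5.8 and 5.7 in the 2112 h group. The 12 arrays labelled replicative T0 and 624 to 2112 h, at 5.5 to 6.3, all lay below the other 18, at 6.8 to 8.1, with the gap of 0.6 between group means falling between RAF T0 at 6.85 and replicative 792 h at 6.25.

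SPRED1, which brings the RAS inhibitor NF1 to the membrane, had 9.2 and 9.3 on the arrays labelled replicative T0, 8.4 on both at 624 h, 9.0 and 9.1 in the 792 h group, 9.4 and 9.3 at 1008 h, 9.8 on both in the 1368 h group and 9.5 on both at 2112 h, and lay between 7.9 and 8.3 on all RAF arrays. SPRED2, a relative with the same kind of action, had 7.7 and 7.8 at replicative T0, 6.9 on both at 624 h, 8.5 on both in the 792 h group, 8.6 and 8.7 at 1008 h, 8.4 on both in the 1368 h group and 8.1 on both at 2112 h, against 6.6 to 7.1 on all RAF arrays. SPRED3, the third of the family, had 6.7 and 6.9 at replicative T0, 6.4 and 6.5 at 624 h, 7.1 on both in the 792 h group, 7.1 and 7.2 at 1008 h, 7.2 and 7.3 in the 1368 h group, and 7.0 and 7.1 at 2112 h, against 6.0 to 6.2 on all RAF arrays. For all 3, the arrays labelled replicative T0 and 792 to 2112 h exceeded every RAF array without overlap.

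Ordered by group mean, neighbouring groups often overlapped. Of the 14 neighbouring pairs in each gene's order, every array of one lay above every array of the next in 7 for DUSP6 and SPRY1, 6 for SPRY2 and SPRY4, 5 for SPRED1 and SPRED2, 4 for DUSP4 and DUSP5, and 3 for SPRED3. The top group was replicative 1368 h for SPRY2 (10.8), SPRY4 (10.55), SPRED1 (9.8) and SPRED3 (7.25). It was replicative 1008 h for DUSP6 (10.85) and SPRED2 (8.65), replicative 792 h for DUSP4 (7.9) and DUSP5 (9.7), and replicative 144 h for SPRY1 (8.05). The lowest group was RAF T0 for SPRY4 (7.4), SPRED2 (6.65) and SPRED3 (6.05), and RAF T0 with RAF 12 h for SPRED1 (8.0 in both). It was RAF 12 h for DUSP6 (7.8), replicative 624 h for DUSP4 (6.0) and replicative 432 h for DUSP5 (7.8). For SPRY1 it was replicative 1368 h (5.7), barely below replicative T0 and 2112 h (5.75 in both). SPRY2 had 7.5 in RAF 24 h and in replicative 144 and 432 h.

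In the RAF course no feedback gene differed from T0 by more than 1.0 log2 unit, and SPRY1 and SPRY4 were higher at every label. All tests were limma's moderated test over all 52329 features, two-sided, with Benjamini-Hochberg adjustment and a threshold of 0.05, and each difference is on the log2 scale with its standard error (SE). SPRY4 was higher by 0.50 at 12 and 24 h and by 0.55 at 48, 72 and 96 h (SE 0.05, adjusted p 0.00049 at 96 h), about 1.46-fold at the last label. SPRY1 was higher by 0.45 at 12 h, 0.80 at 24 and 48 h, 1.0 at 72 h (2-fold, adjusted p 0.00021) and 0.35 at 96 h (SE 0.06, adjusted p 0.0063). DUSP6 fell at 12 h (-0.45, SE 0.05, adjusted p 0.00047) and was higher at 48 h (0.25), 72 h (0.25) and 96 h (0.30, adjusted p 0.0048), with 0.15 at 24 h not past the threshold (adjusted p 0.13). DUSP4 fell at 12 h (-0.35, SE 0.05, adjusted p 0.0030) and did not pass at the other 4 labels, where its differences were -0.10 to -0.20. At 12 h the 2 phosphatases that passed were lower, and the 3 SPRY and SPRED genes that passed were higher. The direction did not divide cleanly by family. DUSP5 was higher by 0.30 without passing (adjusted p 0.13), and SPRY2 and SPRED1 were at 0. SPRED2 rose at 12 h (0.30, SE 0.07, adjusted p 0.014), at 48 h (0.30, adjusted p 0.030) and also at 96 h (0.40, adjusted p 0.0050). DUSP5, SPRY2, SPRED1 and SPRED3 passed at no RAF label, with differences of -0.10 to 0.35 for DUSP5, -0.25 to 0.05 for SPRY2, 0 to 0.30 for SPRED1 and 0.05 to 0.15 for SPRED3.

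Counted over the 9, 3 were higher and 2 lower at 12 h, where 19.4% of all features passed (9.7% higher and 9.73% lower). At 24 h 2 were higher and 0 lower (5.9% of features, 2.64% higher and 3.26% lower), and at 48 h 4 and 0 (8.3%, 3.96% higher and 4.35% lower). At 72 h 3 were higher and 0 lower (8.81%, 4.34% higher and 4.47% lower), and at 96 h 4 and 0 (15.7%, 7.97% higher and 7.71% lower). The median difference over the 9 was 0.05, 0.15, 0.20, 0.20 and 0.30 at these labels, beside a median of 0 over all features at each. Any difference among the 6 RAF labels was called for 5 of the 9 by the joint F test, against 19.6% of features: DUSP4 (adjusted p 0.029), DUSP6 (0.00030), SPRED2 (0.028), SPRY1 (0.00024) and SPRY4 (0.0017). Without the arrays labelled RAF T0, 2 of the 9 passed that test beside 10.6% of features, and without RAF T0 replicate 1 alone, 3 did beside 13.7%. Leaving out 1 array ended the SPRED2 call at 12 h (RAF T0 replicate 2 or RAF 12 h replicate 2, adjusted p 0.0835 and 0.0812), and at 48 h (any array of RAF T0, 24 h or 48 h, 0.05 to 0.144). It ended the DUSP6 call at 48 h (RAF T0 replicate 2 or either 48 h array, 0.0578 to 0.0814) and at 72 h (RAF T0 replicate 2 or either 72 h array, 0.0784 to 0.0961).

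The G2 and mitosis genes moved strongly with the same labels. All 19 measured were higher at RAF 96 h than at RAF T0, with a median difference of 2.9, and MKI67 was 8.6 and 8.5 at RAF 96 h against 5.1 and 5.2 at RAF T0. Their part in the differences of the feedback genes was not tested.

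**Figure D2:**
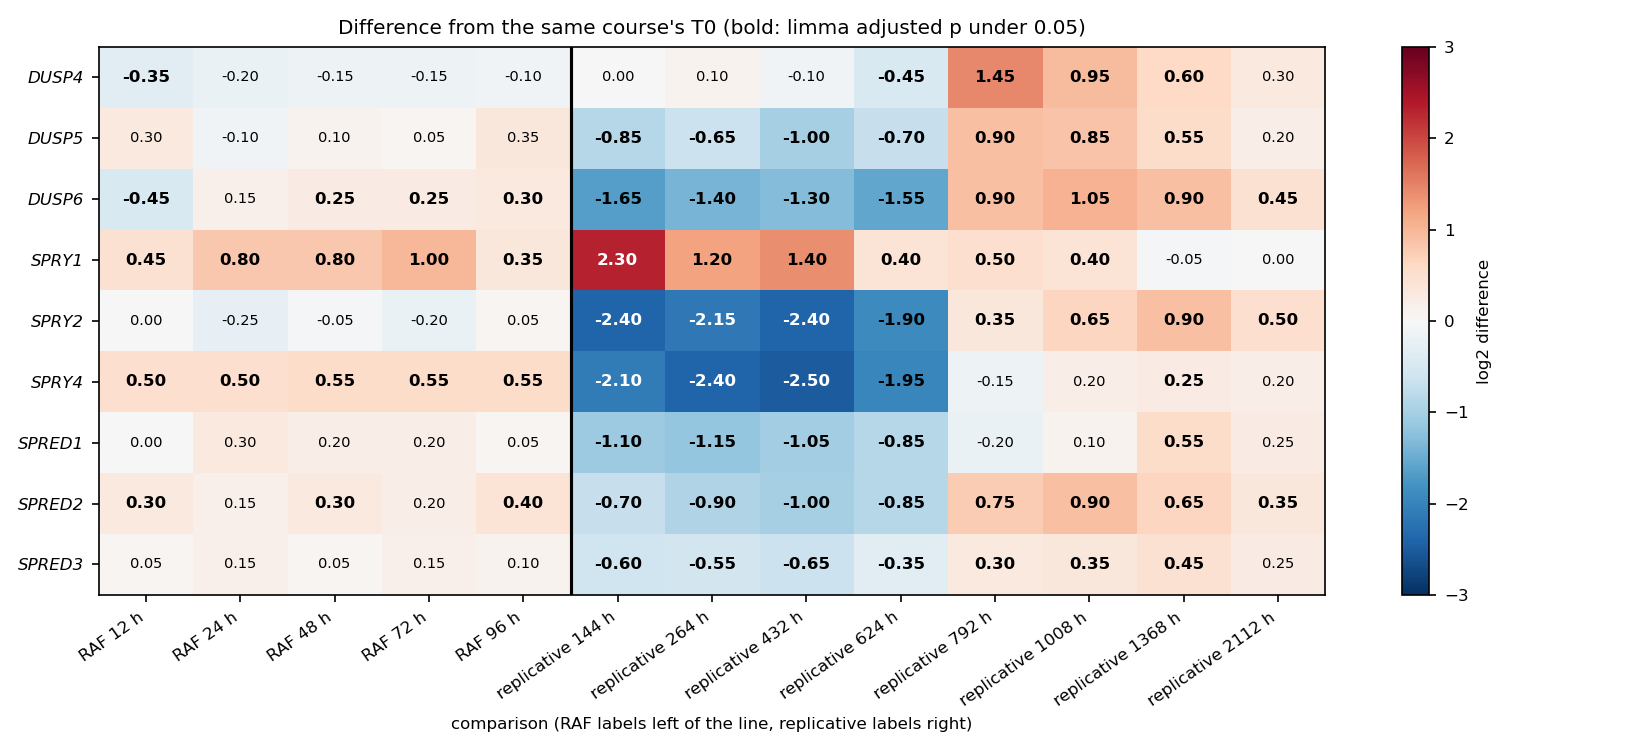
Log2 difference of each member from the T0 label of its own course, genes down the side and labels along the bottom (RAF left of the line, replicative right), with bold print where limma's adjusted p was under 0.05. RAF differences stay between -0.45 and 1.0, and the replicative ones run from -2.50 to 2.30.

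In the replicative course 8 of the 9 fell at 624 h and up to 8 of the 9 rose at the later labels, against T0. At 144 h, 7 were lower and 1 higher, where 58.7% of features passed (30.1% higher and 28.6% lower). The counts were the same at 264 h (56.9%, 30.4% higher and 26.5% lower) and at 432 h (58%, 31.2% higher and 26.8% lower). SPRY2 was lower by 2.40 at 144 h (log2 difference -2.40, SE 0.08, adjusted p 1.1e-09), a 5.28-fold difference. SPRY4 differed by -2.10, DUSP6 by -1.65, SPRED1 by -1.10, DUSP5 by -0.85, SPRED2 by -0.70 and SPRED3 by -0.60 at that label. SPRY1 was the 1 that rose, by 2.30 (SE 0.12, adjusted p 3.8e-08, 4.92-fold), and by 1.20 at 264 h and 1.40 at 432 h. DUSP4 passed at none of these 3 labels (0, 0.10 and -0.10). The median over the 9 was -0.85, -0.90 and -1.0 at the 3 labels, beside 0 over all features. These labels are the 6 replicative arrays that lay with the RAF arrays on the first component.

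The 624 h arrays lay on the T0 side of that component, but at 25.24 and 26.26 against 63.33 and 65.07 for T0. At 624 h, too, the feedback genes were low. All 9 passed against T0, 8 lower and 1 higher, where 13.8% of features passed (7.17% higher and 6.67% lower). SPRY4 differed by -1.95 (SE 0.08), SPRY2 by -1.90, DUSP6 by -1.55 (SE 0.06, adjusted p 1.1e-08), SPRED1 and SPRED2 by -0.85, DUSP5 by -0.70 (adjusted p 0.0010), DUSP4 by -0.45 (adjusted p 0.0038) and SPRED3 by -0.35 (adjusted p 0.0078). SPRY1 was higher by 0.40 (SE 0.12, adjusted p 0.0495). That last call was lost when any array was left out other than those labelled 1008 and 1368 h (14 of the 18, adjusted p 0.0615 to 0.233). The SPRED3 call was lost without replicative T0 replicate 2 (0.0855) or 624 h replicate 1 (0.0763).

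From 792 h on, every member that passed against T0 was higher. Of the 9, 7 were higher and 0 lower at 792 h, where 24.8% of features passed (13.1% higher), and at 1008 h, where 23% did (11.7% higher). The counts were 8 and 0 at 1368 h (17.1% of features, 8.74% higher), and 3 and 0 at 2112 h (2.8%, 1.34% higher). DUSP4 had its highest difference at 792 h (1.45, SE 0.09, adjusted p 7.4e-08), followed by 0.95 at 1008 h and 0.60 at 1368 h. At 2112 h its difference of 0.30 did not pass (adjusted p 0.10). DUSP6 differed by 0.90 at 792 h, 1.05 at 1008 h (2.07-fold, adjusted p 3.2e-08), 0.90 at 1368 h and 0.45 at 2112 h (adjusted p 0.0011). SPRY2 differed by 0.35, 0.65, 0.90 and 0.50 at the 4 labels, and passed at each. SPRED2 differed by 0.75, 0.90, 0.65 and 0.35 and also passed at each. By value, DUSP4 was highest at 792 h, DUSP6 and SPRED2 at 1008 h and SPRY2 at 1368 h, but this order is poorly resolved. The rises from 792 to 1008 h of DUSP6 and SPRED2 (0.15 each, adjusted p 0.20 and 0.23) did not pass. Nor did that of SPRY2 from 1008 to 1368 h (0.25, adjusted p 0.098). At the label after the highest, the falls of DUSP4, SPRED2 and SPRY2 passed and that of DUSP6 did not. Those of DUSP4 and SPRED2 were lost with 1 array out, as given below. DUSP5 passed at 792, 1008 and 1368 h (0.90, 0.85 and 0.55), and so did SPRED3 (0.30, 0.35 and 0.45). SPRED1 and SPRY4 passed at 1368 h only (0.55, adjusted p 0.00010, and 0.25, adjusted p 0.046), and SPRY1 at 792 and 1008 h (0.50 and 0.40). Below T0, without passing, were SPRED1 (-0.20, adjusted p 0.052) and SPRY4 (-0.15, adjusted p 0.20) at 792 h and SPRY1 (-0.05, adjusted p 0.85) at 1368 h. With either 264 h array left out, SPRED1 was called lower at 792 h (0.0228). The median over the 9 was 0.50, 0.65, 0.55 and 0.25, beside 0 over all features. Of the 19 mitosis genes, all 19 were lower than at T0 at 144 h and at 1008 h (medians -1.55 and -3.45), 14 at 624 h (median -0.40) and 17 at 2112 h (median -0.50), and 0 were higher at these labels. Their part in the differences of the feedback genes was not tested.

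Some of these calls were lost with 1 array left out. SPRY4 at 1368 h was lost when any array was left out other than those labelled 264 and 432 h (14 of the 18, adjusted p 0.0504 to 0.25). SPRY1 was lost at 792 h without replicative T0 replicate 1 (0.0666) or 792 h replicate 1 (0.0648), and at 1008 h without either T0 array or 1008 h replicate 1 (0.0745 to 0.268). SPRED3 was lost without T0 replicate 1 at 792 h (0.109) and at 1008 h (0.0505). At 2112 h, SPRED2 was lost without T0 replicate 1 or either 2112 h array (0.0662 to 0.0833) and SPRY2 without 2112 h replicate 1 (0.053), while DUSP6 was not lost in any of these refits.

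Of 72 tests against T0, 58 passed. Of all features, 56.9% to 58.7% passed at 144, 264 and 432 h, and 2.8% to 24.8% at the later labels. Over the 5 labels from 624 h on, 34 of 45 passed. When the 6 arrays labelled 144, 264 and 432 h were left out of the fit, 34 of 45 passed again. That choice was made after seeing the data. The share of all features that passed these tests in that refit is not given here, so the repeated count is only a description. By the joint F test all 9 differed among the replicative labels (adjusted p 3.4e-12 to 1.2e-07), where 74.2% of features did. All 9 did so without those 6 arrays too, where 34% of features did, and 7 of the 9 differed among the labels 792 to 2112 h alone, where 16.8% of features did.

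Of the 7 steps between neighbouring labels after 144 h, the one at 792 h was the largest for 8 of the 9. The 624 h arrays (25.24 and 26.26) and the 792 h arrays (79.86 and 82.86) were on the same side of the first component, but far apart. At 792 h against 624 h, 8 were higher and 0 lower, where 31.1% of features passed (15.8% higher), and the median over the 9 was 1.60 beside 0 over all features. DUSP6 was 5.46-fold higher (2.45, SE 0.06, adjusted p 1.9e-11), SPRY2 higher by 2.25 (SE 0.08, adjusted p 5e-10), DUSP4 by 1.90 (SE 0.09, adjusted p 4.9e-09), SPRY4 by 1.80 (SE 0.08), DUSP5 and SPRED2 by 1.60, and SPRED1 and SPRED3 by 0.65. SPRY1 differed by 0.10 (adjusted p 0.59), with 6.3 and 6.2 at 792 h against 6.2 and 6.1 at 624 h. All 8 calls held with any single array left out. The mitosis genes differed in the other direction over the same step: all 19 measured were lower at 792 h, with a median of -3.0, and MKI67 was 5.7 and 5.6 at 792 h against 9.1 on both arrays at 624 h. Markers of cell types moved over the step as well. Of 10 fibroblast markers 2 were higher and 6 lower, of 10 epithelial markers 0 and 4, of 9 endothelial markers 3 and 1, and of 5 leukocyte markers 1 and 0. LUM averaged 4.6 at 792 h against 7.65 at 624 h, DCN 7.4 against 10.35, THY1 8.0 against 9.55, TEK 6.75 against 8.1, CD68 10.9 against 9.65 and PECAM1 5.05 against 3.7. The part of the mitosis genes and of these markers in the result was not tested. At 2112 h, MKI67 was back at 8.8 on both arrays, where DUSP6 had 10.3 and 10.2.

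At the other replicative steps fewer of the 9 passed, or they passed in both directions. At 624 h against 432 h, labels on opposite sides of the first component, 5 were higher and 3 lower (45.4% of features). SPRY4 differed by 0.55, SPRY2 by 0.50 and SPRY1 by -1.0 (adjusted p 5.9e-05). Of these 8 calls, 3 were lost with 1 array out: DUSP5 (624 h replicate 2, 432 h replicate 1 or either 2112 h array, 0.0519 to 0.249), SPRED1 (any array of either label, 0.0979 to 0.104) and SPRED3 (replicate 2 of either label, 0.0568 and 0.0569). At 264 h against 144 h, 1 was higher and 2 lower (10.2%), with SPRY1 at -1.10 (adjusted p 0.00012), DUSP6 at 0.25 and SPRY4 at -0.30. The DUSP6 call was lost without either 264 h array or 144 h replicate 1 (0.0563 to 0.0908), and that of SPRY4 without 264 h replicate 2 or either 144 h array (0.104 to 0.214). At 432 h against 264 h, 0 passed by limma (0.801% of features), and 3 had an unadjusted p under 0.05. At 1008 h against 792 h, 2 were higher and 1 lower (2.54%), and each of these 3 calls was lost when any of the 4 arrays compared was left out. That holds for DUSP4 at -0.50 (0.0594 to 0.0737), for SPRED1 at 0.30, lost also without any array labelled 432, 624, 1368 or 2112 h (0.0601 to 0.236 in all), and for SPRY4 at 0.35, lost also without any array labelled 144, 624 or 2112 h (0.0524 to 0.166 in all). At 1368 h against 1008 h, 1 was higher and 2 lower (5.22%), of which SPRED1 at 0.45 (adjusted p 0.0025) held with any array out. DUSP4 at -0.35 was lost without 1368 h replicate 1 or any array labelled 624, 792 or 1008 h (0.051 to 0.202), and SPRED2 at -0.25 without either 1368 h array or 1008 h replicate 2 (0.108 to 0.189). At 2112 h against 1368 h, 0 were higher and 5 lower (11.6%), with DUSP6 at -0.45 (adjusted p 0.00018), SPRY2 at -0.40 (adjusted p 0.0050) and SPRED2 at -0.30 (adjusted p 0.0054) held with any array out. DUSP4 at -0.30 was lost without 1368 h replicate 2 or any array labelled 624, 792, 1008 or 2112 h (0.056 to 0.31), and SPRED1 at -0.30 without any 1 of the 4 arrays compared (0.0617 to 0.0786).

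In the RAF course, 24 h against 12 h had DUSP6 higher by 0.60 (SE 0.05, adjusted p 0.00026) and SPRY1 higher by 0.35 (adjusted p 0.0080), where 12.6% of features passed. At 48 h against 24 h, and at 72 h against 48 h, limma called 0 of the 9 and 0% of features. The numbers with an unadjusted p under 0.05 were 0 and 1. At 96 h against 72 h, SPRY1 alone of the 9 passed, lower by 0.65 (-0.65, adjusted p 0.0023), where 4.81% of features passed (2.63% higher and 2.18% lower).

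**Figure D3:**
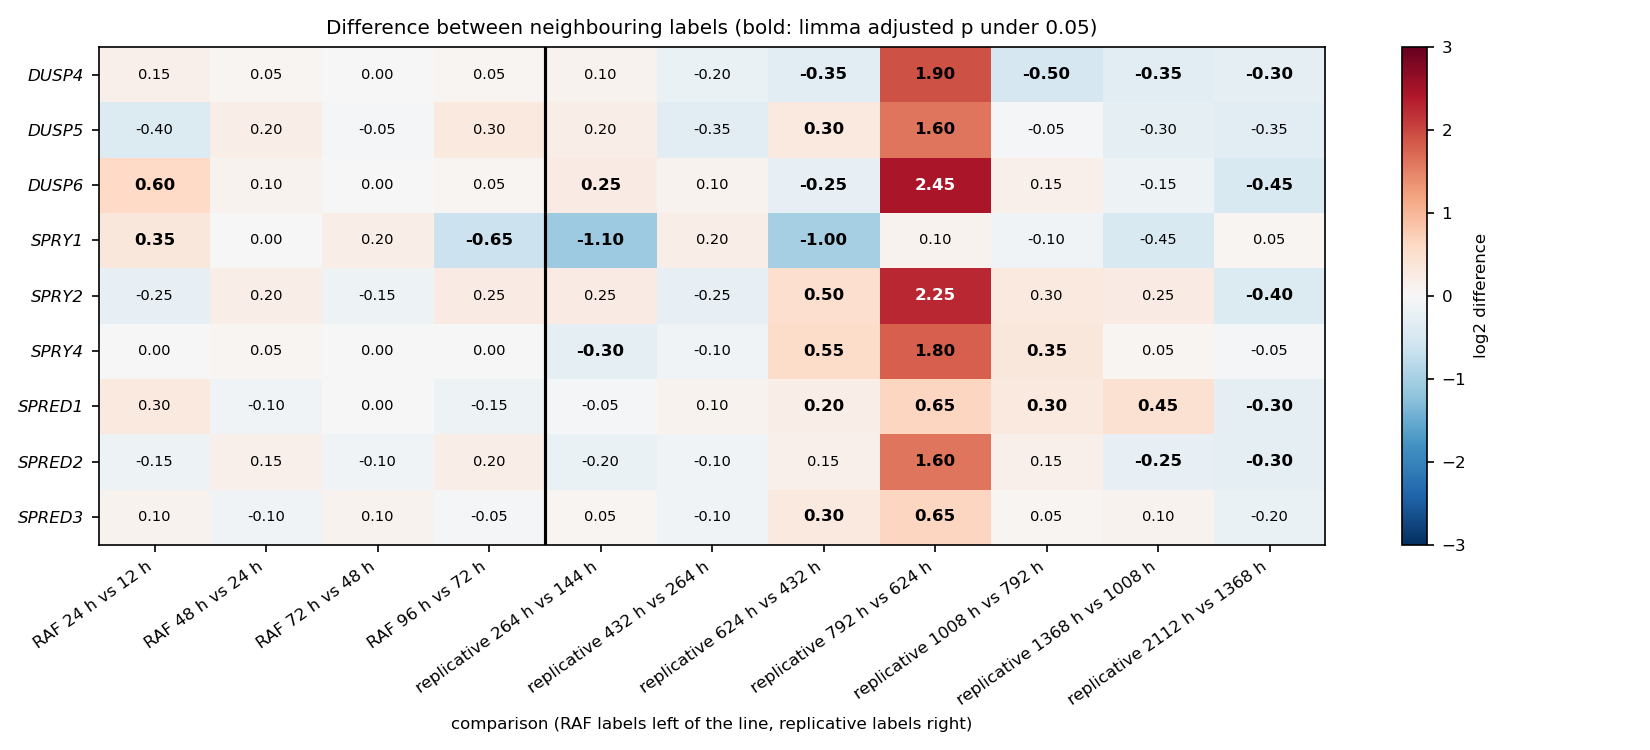
Log2 difference of each member between a label and the label before it, genes down the side and comparisons along the bottom, with bold print where limma's adjusted p was under 0.05. The column for 792 h against 624 h holds 8 bold values from 0.65 to 2.45, and SPRY1 is the exception there at 0.10.

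Among the replicative arrays kept in 21% oxygen, the last label was set against the first. At 2112 h against 144 h all 9 passed, 8 higher and 1 lower, where 60.7% of features passed (29.8% higher and 30.9% lower). SPRY2 was 7.46-fold higher (2.90, SE 0.08, adjusted p 1.9e-10), with 10.4 on both arrays at 2112 h against 7.5 on both at 144 h. SPRY4 was higher by 2.30, DUSP6 by 2.10, SPRED1 by 1.35, DUSP5 and SPRED2 by 1.05, SPRED3 by 0.85 and DUSP4 by 0.30 (adjusted p 0.0093). SPRY1 was 4.92-fold lower (-2.30, adjusted p 3.7e-08), with 5.8 and 5.7 at 2112 h against 8.1 and 8.0 at 144 h. The DUSP4 call was lost without 2112 h replicate 2 (0.0719) or 144 h replicate 1 (0.0684). These 2 labels stood on opposite sides of the first component.

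The T0 labels of the 2 courses differed for all 9, 7 higher and 2 lower in replicative T0, where 58.9% of features passed (28.2% higher and 30.7% lower). SPRY4 was 7.46-fold higher in replicative T0 than in RAF T0 (2.90, SE 0.07, adjusted p 7.6e-16). SPRY2 was higher by 2.15, DUSP6 by 1.55, SPRED1 by 1.25, SPRED2 by 1.10, DUSP5 by 0.85 and SPRED3 by 0.75. SPRY1 was lower (-1.10, SE 0.11, adjusted p 5.9e-08), and so was DUSP4 (-0.20, SE 0.08, adjusted p 0.031), a call lost without replicative T0 replicate 1 (0.195) or RAF T0 replicate 1 (0.194). All 19 mitosis genes were higher in replicative T0 too, with a median of 3.65, and of the 10 fibroblast markers 5 were higher and 5 lower. The part of either list in the result was not tested. Because the baselines lay this far apart, each course was read against its own T0.

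The change at the end of each course was compared directly, as RAF 96 h minus T0 less replicative 2112 h minus T0. Of the 9, 3 passed, against 13.7% of features: SPRY4 (0.35, adjusted p 0.023), DUSP4 (-0.40, adjusted p 0.016) and SPRY2 (-0.45, adjusted p 0.015). SPRY4 had changed by 0.55 in the RAF course and 0.20 in the replicative course, DUSP4 by -0.10 and 0.30, and SPRY2 by 0.05 and 0.50. Each of the 3 calls was lost with 1 array left out: SPRY2 without RAF T0 replicate 1 (0.0677), DUSP4 without replicate 1 of either T0 or replicate 2 of either endpoint (0.0729 to 0.0783), and SPRY4 when any of the 8 arrays compared was left out other than RAF 96 h replicate 2 (0.0586 to 0.0981).

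Other restraints and the pathway around them gave calls in both directions. Of 8 other dual-specificity phosphatases, 2 were higher and 2 lower at replicative 792 h against 624 h, with a median of -0.025. Over that step 15.8% of all features were higher and 15.3% lower. DUSP16 differed by 0.80 and DUSP2 by 0.70, and DUSP10, a phosphatase of JNK and p38, by -1.40. DUSP1, an early stress-induced phosphatase, did not pass (0.30, adjusted p 0.12). Of 16 genes measured in a list of other restraints, 9 were higher and 3 lower, with a median of 0.40. The list's largest rise, that of FLRT3 (3.50), was in a gene that does not do what the list's name says: in Xenopus it is reported to bind FGF receptors and promote their signalling. The others named by size were the pseudokinase TRIB1 (2.75), PEBP1, which binds RAF (-0.65), and LRIG1, which promotes the loss of EGF receptors (-0.45). Of 21 receptor tyrosine kinases and ligands, 6 were higher and 9 lower, with EREG, an EGF receptor ligand, at 4.70, NRG1, a ligand of the ERBB receptors, at 3.40, and FGF5 and FGF7 both at -1.85.

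The relay itself had a median near 0. Of 18 measured genes from receptor adaptors to ERK and its kinases, 6 were higher and 2 lower at 792 h against 624 h. Their median was -0.025, and of all features 15.8% were higher and 15.3% lower. RPS6KA3, a kinase that ERK activates, differed by 1.75 and MAP2K1, which encodes a MEK, by 0.55. ARAF (-0.05, adjusted p 0.60) and MAPK3, which encodes an ERK (-0.15, adjusted p 0.058), did not pass. Of 26 transcripts known to be driven by ERK, 18 were higher and 4 lower at that step, with a median of 0.65: the cytokine LIF differed by 3.40, JUNB by 2.60, the early-response factor EGR1 by 1.80, FOSL1 by -1.40 and the cyclin CCND1 by -0.55. EGR1 had 10.9 and 10.8 at 792 h against 8.9 and 9.2 at 624 h. The median of the 9 feedback genes, 1.60, can be set beside these medians only as a description.

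At other labels the lists divided as follows. The shares of all features called higher and lower were 7.17% and 6.67% at replicative 624 h, and 11.7% and 11.3% at 1008 h. They were 1.34% and 1.46% at 2112 h, and 7.97% and 7.71% at RAF 96 h. At replicative 624 h against T0, 1 of the 26 ERK-driven transcripts was higher and 16 lower (median -0.45), with EGR1 at -1.70 and PHLDA1 at -1.35. At 1008 h, 15 were higher and 5 lower (median 0.375), and at 2112 h, 5 and 0 (median 0.075). At RAF 96 h, 11 were higher and 3 lower (median 0.10), with PHLDA2 at 0.95, FOS at 0.85, EPHA4 at -0.55 and JUN at -0.35. EGR1 did not pass there (0.10, adjusted p 0.52). Of the 18 relay genes, 0 were higher and 5 lower at RAF 96 h, with RRAS at -0.55 and SOS1 at -0.50, while ARAF was at 0 and MAPK3 at -0.10 (adjusted p 0.085). Of the other phosphatases, DUSP1 and DUSP14 were each higher by 0.40 at RAF 96 h.

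**Figure D4:**
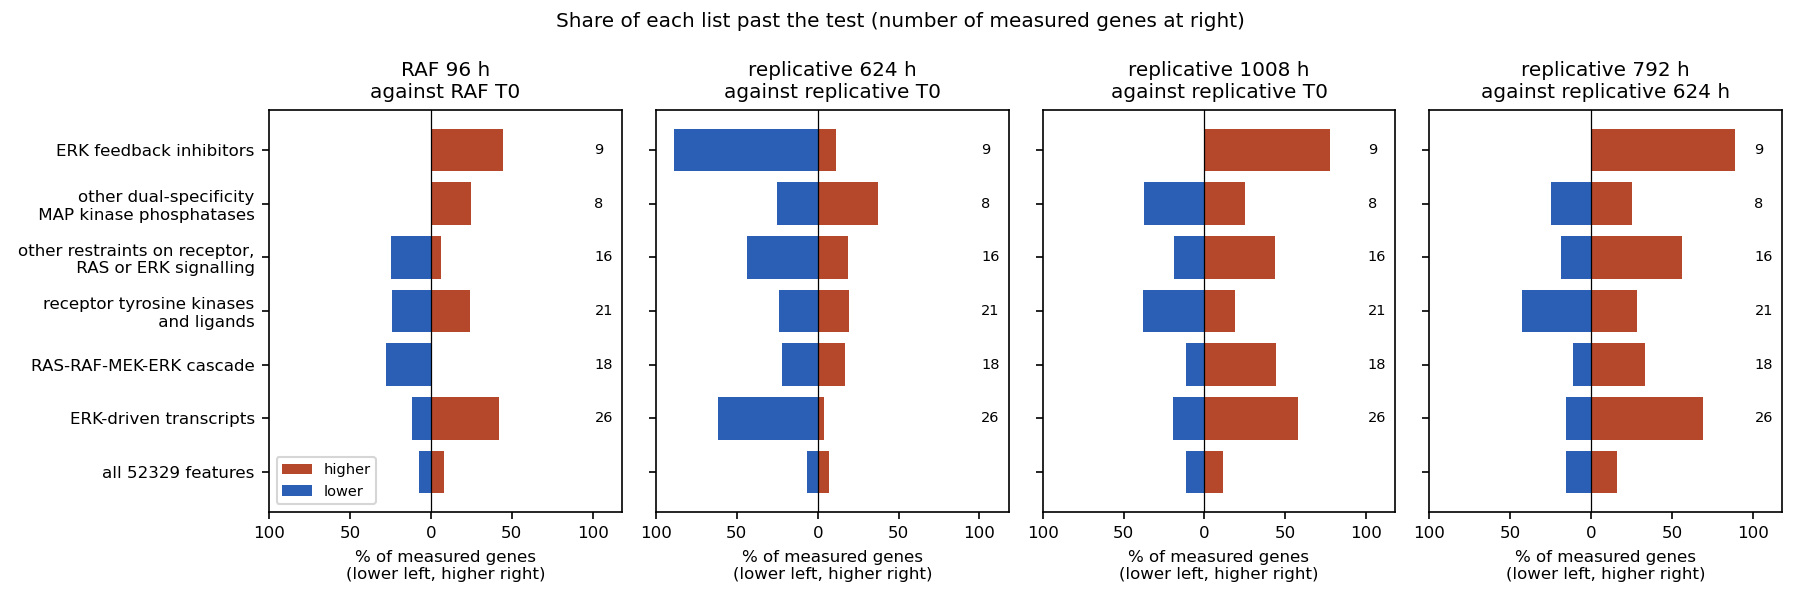
Percentage of the measured genes of each list, and of all features, that limma called higher (right of 0) or lower (left of 0) in 4 comparisons, with the number of measured genes beside each bar and the 9 feedback genes in the top row. At 792 h against 624 h the bars read 8 of 9 higher for the feedback genes, 18 of 26 for the ERK-driven transcripts and 6 of 18 for the relay.

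Genes with the most similar profile were sought over the 15 group means among 3791 singly named genes whose means span at least 1 log2 unit. The 15 groups share the split on the first component, so the correlation is given only as a description. The nearest were FKBP1C for DUSP6 (Pearson r 0.9953 over 15 groups), TOMM34 for SPRY2 (0.9958), PITPNC1 for SPRED2 (0.9946), TRUB2 for DUSP5 (0.9901), NRIP3 for SPRED3 (0.9899), ARHGAP24 for SPRED1 (0.9889), PRDM1 for SPRY4 (0.9883), MED12L for DUSP4 (0.9834) and IL1R1 for SPRY1 (0.9697). KCTD5 was among the 3 nearest of both SPRY2 (0.9912) and SPRED3 (0.9875).

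**Figure D5:**
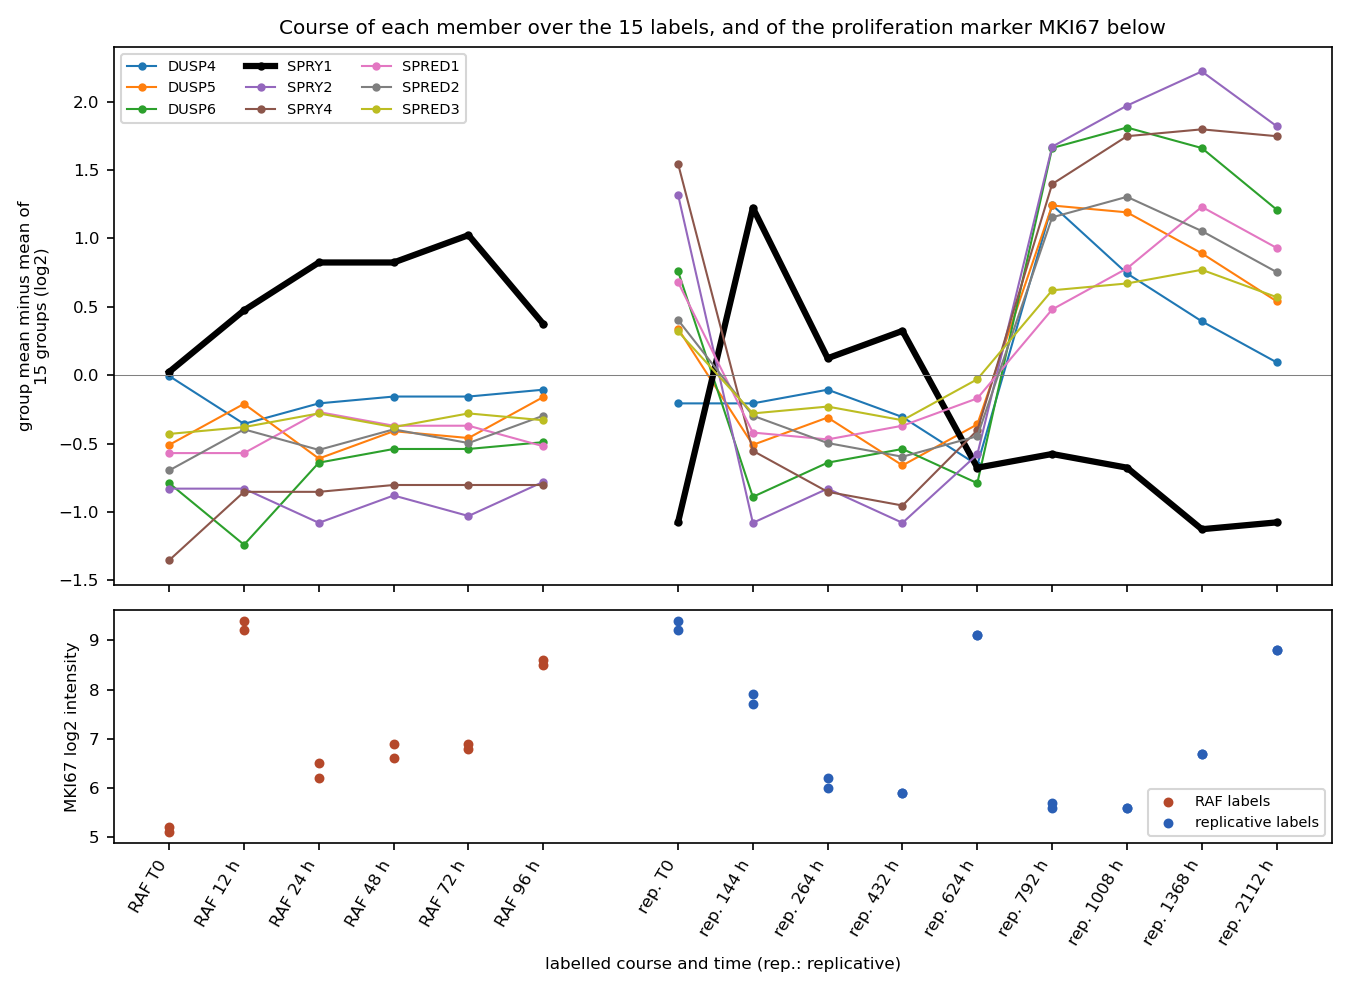
Group mean of each member minus its mean over the 15 groups (log2, upper panel, 1 line per gene) and MKI67 on every array (log2 intensity, lower panel), by label. SPRY1 (heavy line) peaks at replicative 144 h, where DUSP6, SPRY2 and SPRY4 are low, and MKI67 is between 5.6 and 5.7 at 792 h and 8.8 at 2112 h.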

How the data were processed

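RNA of 30 arrays was compared by the groups given in the sample titles. The values are the authors' deposited log2 intensities. That they are log2 was read from their range (-1.6 to 14), while how they were summarised and normalized is not given in the sources used here. Array medians are all 5.5 and values are rounded to steps of 0.1. With no scanner files used here, no background call was made. Precision is limited by the number of arrays. Replicates are called biological for RAF in the submitters' design text, which does not say so of the replicative ones, whose p-values may measure technical spread only. That text lists fewer replicative hours than the titles, which were followed.

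Each course was fitted by itself with limma 3.58.1 (R 4.3.3), 1 mean per label, over all 52329 features, unfiltered, with Benjamini-Hochberg adjustment over them and a threshold of 0.05. Comparisons across courses used all 30 arrays. The test was tried on simulated data first. Probe symbols come from GEO's platform table: 21055 features had 1 symbol, 1406 several and 29868 none. Members and lists were chosen with earlier results of these data known. All 9 members are named; from other lists, at most the 2 largest rises and falls past the threshold, besides ARAF, MAPK3, DUSP1, EGR1 and MKI67. Of 165 listed genes, 150 were measured. Same-numbered arrays did not all deviate together: correlations of their deviations ran from -0.0624 to 0.358 over 15 RAF pairs of groups (median 0.0205, 3 over 0.1) and from -0.277 to 0.312 over 36 replicative pairs (median 0.0264, 9 over 0.1). Quantile normalization, a filter on dim features, a trended and robust variance prior, other arrays in the fit, a replicate block and leaving out each array were tried.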

Additional observations from a re-analysis of the deposited data

Results flagged for a closer look

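The change at the end of the RAF course was 96 h minus T0, and that of the replicative course 2112 h minus T0. For 3 of the 9 genes these changes differed by the test of the difference itself, which 13.7% of all features passed. The value was -0.40 on the log2 scale for DUSP4 (adjusted p 0.016), whose change was -0.10 in the RAF course and 0.30 in the replicative course. It was -0.45 for SPRY2 (adjusted p 0.015), with changes of 0.05 and 0.50, and 0.35 for SPRY4 (adjusted p 0.023), with changes of 0.55 and 0.20. The courses also differ in their hours, in oxygen and in doxycycline, and these cannot be told apart here. Each call was lost with 1 array left out.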

How the results depend on the processing

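Against RAF T0, 18 of 45 tests passed, and 18 to 21 did so under the other settings and 14 to 18 with 1 array left out. Against replicative T0, 58 of 72 passed, 58 to 61 under the other settings with all labels and 51 to 59 with 1 array out. Leaving out the labels 144, 264 and 432 h, a choice made after seeing the data, left 34 of 45, because fewer labels were tested. The shares of all features that passed are given above for each comparison, and were not pooled for the sums in this section. Between neighbouring RAF labels 3 of 36 passed, and 5 did so without dim features, with the trended and robust prior and with all 30 arrays (3 to 5 with 1 array out, the 5 without either RAF 48 h array). Between neighbouring replicative labels 30 of 63 passed, with 28 to 37 under the other settings and 24 to 31 with 1 array out. The joint test among RAF labels called 5 of 9 (19.6% of features), but 8 with all 30 arrays in the fit (28.5%). It called 2 without the arrays labelled RAF T0 (10.6%). The cause of these shifts was not tested. The joint test among replicative labels called 9 of 9 (74.2% of features), and 7 among 792 to 2112 h only (16.8%). For 2112 h against 144 h (60.7% of features in the main fit), 8 to 9 passed with 1 array out. For replicative T0 against RAF T0 (58.9%), 8 to 9 did. The endpoint difference called 3 (13.7% of features in the main fit), and 0 to 2 with 1 array out. It called 0 without RAF T0 replicate 1, and 1 without replicative T0 replicate 1 or replicative 2112 h replicate 2. Of 130 calls of single genes in the contrasts, 100 held with any array left out and 30 did not. No called change of a member at RAF 96 h, replicative 624 h or 2112 h reversed, while SPRED1 at RAF 96 h, not called (0.05), ran from -0.05 to 0.15 with 1 array out, and SPRY1 at 2112 h (0) from -0.05 to 0.05. The arrays share only a replicate number, and with that number as a block 18 of 45 RAF and 59 of 72 replicative tests passed. Averaging features per gene was not run, since every member has 1. With 2 arrays per label and steps of 0.1, differences of 1 or 2 steps are poorly resolved.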
